A study of Mus musculus with 19 samples.

Results

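The chromatin remodellers and histone modifiers examined here are 39 genes listed by name, from the 20923 protein-coding genes of the mouse annotation on chromosomes 1 to 19 and X. They comprise 8 subunits of the BAF (SWI/SNF) complex, 2 CHD remodellers, 5 genes of Polycomb repressive complex 2 (PRC2), 3 histone H3 lysine 4 (H3K4) methyltransferases, 7 histone demethylases, 3 acetyltransferases, 5 deacetylases, 5 other histone methyltransferases and *Ctcf*. For each gene, the 5-hydroxymethylcytosine (5-hmC) peaks that overlap its span were taken, from the first to the last annotated base, and the percent of the span covered by peaks was computed in each of 8 peak lists. Coverage measures how much of a gene was called as enriched, not the amount of 5-hmC.

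The study profiled 5-hmC in isolated mouse cardiomyocytes (CMCs) by hydroxymethylated DNA immunoprecipitation and sequencing, with input DNA as control. All groups used here are of the strain C57BL/6J, which the study's methods describe as male mice: E14.5 embryos, pups of 1 to 2 days (neonatal), adults of 2 months, and adults 1 week after transverse aortic constriction (TAC), an operation in which the aortic arch is tied to raise the pressure against which the heart pumps. Each point has 2 biological replicates, and the adult group carries no sham operation in its label. E14.5 and neonatal CMCs came from digested ventricles with plating steps that let other cells adhere, adult and TAC CMCs from perfused left ventricles with sedimentation, and purity was assessed by sarcomeric actinin staining and by marker genes, so that age and isolation method cannot be told apart between the first 2 points and the last 2.

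5-hmC is made from 5-methylcytosine by the TET enzymes, mostly at CpG dinucleotides, and in many tissues it lies on the bodies of active genes and on enhancers. BAF and CHD proteins use ATP to move nucleosomes. PRC2 places the repressive methyl mark on H3K27, the KMT2 enzymes place methyl groups on H3K4 at promoters and enhancers, and demethylases remove them. Acetyltransferases place acetyl groups on histones, and deacetylases remove these. BAF subunits, *Chd7*, *Jarid2* and *Kmt2d* are required for normal heart development.

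A few regions show what the peaks in these genes look like, in coordinates of mm10. They are the longest runs of base pairs present in all 8 lists, taken from different genes, and for each transition the widest region held by both lists of one point and by neither list of the other among the genes given in full. The 300 bases around the centre of each are printed on the forward strand, which is the coding direction of all these genes, from the GRCm38 RefSeq genome, with CpG dinucleotides in capitals.

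Here and for the later regions, introns and exons are those of the longest curated transcript of the gene. Exons of other transcripts were not considered, so that a region called intronic may be exonic in another transcript. The first region lies at chr10:80792174-80793003, in intron 27 of 27 of this transcript of *Dot1l*, the H3K79 methyltransferase. The second lies at chr17:5055307-5056082, in intron 2 of 19 of *Arid1b*, a DNA-binding subunit of BAF. The third lies at chr4:8854440-8855211 in *Chd7* and spans exons 30 and 31 of 38 with the short intron between them, so that 575 of its 772 bp and 188 of the 300 printed bases are exonic. Each was under a peak in all 8 lists, and the shared runs measured 830, 776 and 772 bp. The printed windows are chr10:80792439-80792738, chr17:5055545-5055844 and chr4:8854676-8854975.
Dot1l: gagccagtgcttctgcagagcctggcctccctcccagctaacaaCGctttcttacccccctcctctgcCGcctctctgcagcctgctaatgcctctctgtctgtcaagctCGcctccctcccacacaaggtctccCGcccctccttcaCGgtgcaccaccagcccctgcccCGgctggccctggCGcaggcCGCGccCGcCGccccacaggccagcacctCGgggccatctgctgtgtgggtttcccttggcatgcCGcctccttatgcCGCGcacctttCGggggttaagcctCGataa
Arid1b: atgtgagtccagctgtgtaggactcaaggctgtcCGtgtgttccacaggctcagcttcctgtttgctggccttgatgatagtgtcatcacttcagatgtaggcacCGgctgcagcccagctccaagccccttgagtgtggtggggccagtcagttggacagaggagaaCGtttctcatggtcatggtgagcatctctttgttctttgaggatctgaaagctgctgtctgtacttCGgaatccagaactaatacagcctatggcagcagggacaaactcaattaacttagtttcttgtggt
Chd7: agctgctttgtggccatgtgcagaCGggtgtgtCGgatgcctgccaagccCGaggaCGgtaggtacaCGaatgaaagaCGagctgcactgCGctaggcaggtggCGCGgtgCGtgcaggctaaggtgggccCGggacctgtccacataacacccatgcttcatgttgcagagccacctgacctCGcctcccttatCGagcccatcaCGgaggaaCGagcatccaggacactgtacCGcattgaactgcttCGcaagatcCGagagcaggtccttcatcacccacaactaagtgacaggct

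The *Dot1l* and *Chd7* windows hold 17 and 18 CpG in 300 bases, or 5.67 and 6 per 100 bp, and the *Arid1b* window holds 4, or 1.33 per 100 bp. Over the spans of the 39 genes the density was 1.16 per 100 bp, so that regions shared by all lists included CpG-dense sequence and sequence near the density of the spans.

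Other regions differed between points. In *Ctcf*, the region chr8:105638276-105638985 in intron 1 of 11, 2.09 kb from the start site, was held by both neonatal lists and by neither E14.5 list. In *Setd2*, chr9:110543334-110544522 in intron 1 of 20 was held by both adult lists and by neither neonatal list. In *Arid2*, chr15:96356521-96357393 covers 219 bp of exon 5 of 21 and continues into the intron after it. This region of 873 bp was held by both adult lists and by neither TAC list. Each E14.5 and neonatal list had a peak in at least part of it. The longest run that the 6 lists of E14.5, neonatal and adult CMCs shared anywhere in *Arid2* was 599 bp. Of the 300 bases printed from this region, 105 are exonic. The printed windows are chr8:105638481-105638780, chr9:110543778-110544077 and chr15:96356807-96357106.
Ctcf: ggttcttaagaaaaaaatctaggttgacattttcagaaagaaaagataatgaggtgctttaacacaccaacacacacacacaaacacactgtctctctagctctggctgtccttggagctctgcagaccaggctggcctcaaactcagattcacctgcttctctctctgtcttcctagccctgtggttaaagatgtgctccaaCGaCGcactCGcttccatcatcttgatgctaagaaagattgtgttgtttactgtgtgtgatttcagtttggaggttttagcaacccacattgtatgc
Setd2: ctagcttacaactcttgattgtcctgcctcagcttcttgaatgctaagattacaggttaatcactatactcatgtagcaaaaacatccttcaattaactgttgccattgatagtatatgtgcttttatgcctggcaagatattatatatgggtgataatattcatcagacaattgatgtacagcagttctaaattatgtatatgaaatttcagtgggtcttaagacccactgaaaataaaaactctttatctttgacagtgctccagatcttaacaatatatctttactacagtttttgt
Arid2: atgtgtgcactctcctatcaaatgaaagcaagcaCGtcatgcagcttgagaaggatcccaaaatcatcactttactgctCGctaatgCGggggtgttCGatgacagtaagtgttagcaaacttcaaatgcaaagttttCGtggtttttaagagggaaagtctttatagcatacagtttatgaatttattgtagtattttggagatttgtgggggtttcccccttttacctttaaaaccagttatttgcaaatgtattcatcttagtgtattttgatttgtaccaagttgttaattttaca

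These windows hold 3, 0 and 5 CpG, a density of 1, 0 and 1.67 per 100 bp. The *Setd2* window has no CpG at all in its central 300 bases, although the region around it was called in both adult lists, and at least in part in TAC replicate 1.

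The 8 lists held 104215 to 153637 peaks that covered 65.1 to 119 Mb of the genome. They give positions and no read numbers, so the depth is unknown. TAC replicate 2 stood apart from the other lists. Within the 39 spans, its peaks shared 0.0863 to 0.153 of the combined base pairs with the other 7 lists (Jaccard index), whereas the other lists shared 0.173 to 0.353 with each other. It also had 1.36 CpG per 100 bp under its peaks in these genes, against 1.68 to 1.80 in the other 7. TAC values are therefore given for each list, or for replicate 1 beside the mean. The 8 CMC marker genes had 2.43 to 3.11 times the coverage of the average gene in the E14.5 and neonatal lists and 1.36 to 1.64 times in the adult and TAC lists, with *Pln* at 0 in all lists, and the 8 fibroblast genes had 0.134 to 0.43 times, with *Col3a1* and *Tcf21* at 0 in all lists. The 8 endothelial genes had 1.22 and 1.27 times at E14.5, 0.856 and 1.04 times in the neonatal lists and 0.673 to 0.756 times in the adult and TAC lists, the 5 smooth muscle and pericyte genes 0.797 to 1.38 times. The 4 blood cell genes had 1.54 to 4.14 times in the 6 lists without TAC and 0.0603 and 0.0654 times in the TAC lists, where *Adgre1* and *Cd68* were at 0. These are peaks on gene bodies, not RNA levels, and the part of other cell types in the results below was not tested.

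Coverage over the whole group was as follows. The mean percent of a member's span covered by peaks was 7.94% and 6.53% in the E14.5 lists, 9.49% and 12.7% in the neonatal lists, 12.1% and 15.1% in the adult lists and 12.3% and 6.12% in the TAC lists. All 13332 genes tested averaged 7% and 6.48%, 8.22% and 9.88%, 8.24% and 11.1%, and 8.13% and 5.09%. A tested gene is protein-coding, on chromosomes 1 to 19, at least 5 kb long and covered to at least 1% on average. Both adult values of the members lay above both E14.5 values. Where single genes are described below, the order of lists refers to plain percent unless relative coverage is named, and on plain percent the median of all genes differed by 0.27 on the log2 scale for neonatal minus E14.5, by -0.04 for adult minus neonatal and by -0.41 for TAC minus adult.

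Because the number and width of peaks differ between lists, coverage was divided by the mean over all genes tested in the same list. This relative coverage is 1 for the average tested gene. For the 39 members it averaged 1.07 ± 0.0892 (SD, n = 2) in embryonic CMCs at E14.5, then 1.22 ± 0.0949 (SD, n = 2) for the neonatal point, 1.42 ± 0.0707 (SD, n = 2) for the adult point and 1.35 ± 0.216 (SD, n = 2) after TAC (1.51 in TAC replicate 1). The members were thus at the level of the average gene at E14.5 and above it in adult CMCs, by 1.47 and 1.37 times. In TAC the first replicate gave 1.51 and the second 1.20. Since 31 of the 39 genes are longer than the median tested gene, each was also compared with the genes of its own length decile. Members then had 1.19 and 1.03 times their coverage at E14.5, 1.22 and 1.35 times in the neonatal lists, 1.60 and 1.55 times in the adult lists and 1.67 and 1.28 times in the TAC lists.

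Both the number and the width of the peaks were higher in adult than in E14.5 CMCs. The members had 9.56 ± 1.10 (SD, n = 2) peak centres per 100 kb of their summed span at E14.5, 12.8 ± 0.896 (SD, n = 2) for the neonatal point, 14.01 ± 0.269 (SD, n = 2) for the adult point and 12.1 ± 3.25 (SD, n = 2) after TAC (14.4 in TAC replicate 1). For all genes tested these values were 8.48 ± 0.156, 9.65 ± 0.610, 9.17 ± 0.921 and 7.75 ± 0.960 (SD, n = 2 each), with 8.43 in TAC replicate 1. Covered base pairs per peak in the members were 774 ± 9.60 (SD, n = 2) in embryonic CMCs at E14.5, then 909 ± 90.6 (SD, n = 2) for the neonatal point, 966 ± 71.5 (SD, n = 2) for the adult point and 760 ± 127 (SD, n = 2) after TAC (849 in TAC replicate 1). Over all genes tested they were 726, 821, 824 and 696 (766 in TAC replicate 1). In adult CMCs the density of peaks in the members exceeded that of all genes by more than the spread of the replicates. An exact permutation test (two-sided) of 2 lists against 2 cannot give a p under 0.33, so these are descriptions.

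**Figure D1:**
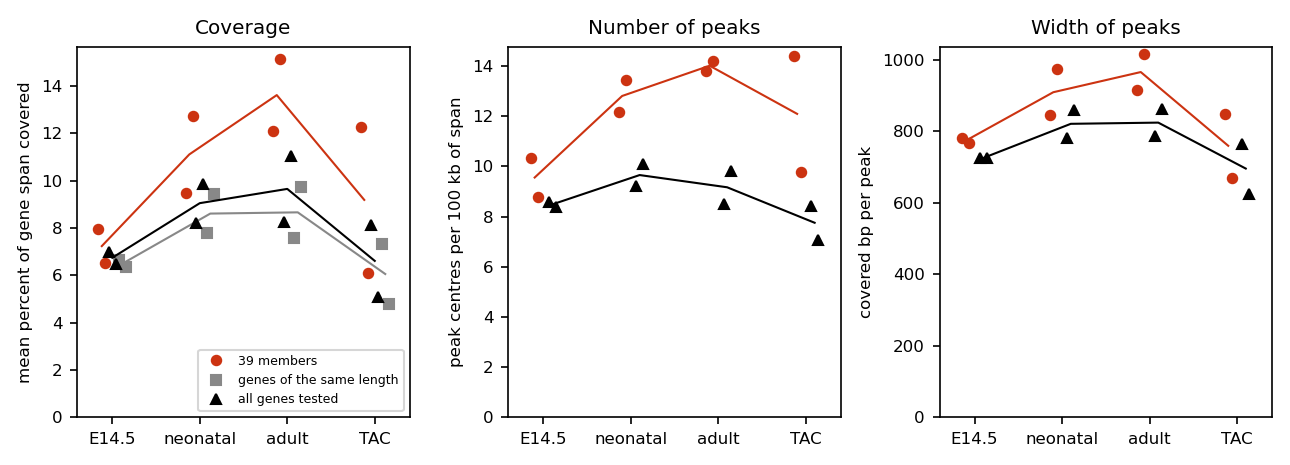
Mean percent of the gene span covered (left), peak centres per 100 kb (middle) and covered bp per peak (right) at the 4 points, with 1 symbol per peak list and lines through the means of the 2 lists. Circles are the 39 members, triangles all genes tested and squares the genes of the same length. The members' 2 adult circles, at 12.1% and 15.1% coverage, lie above both E14.5 circles at 7.94% and 6.53%.

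The genes differed widely among themselves. Averaged over the 8 lists, 19 members lay above the mean of all genes tested and 20 below it. That mean lies above the middle gene: for the adult point, all genes tested had a mean of 9.65% and a median of 6.16%. Compared with the median of their length decile, 24 members were higher. A peak was present in all 8 lists in 34 of them. Within their length decile, 9 belonged to the top 10% in coverage and 5 to the bottom 10%. The deciles, also those used for the median, hold only genes tested, which are covered to at least 1%. *Suz12* and *Ezh2* are under that limit and so were among these 5 by construction. The most covered were *Smarcd1* at 33.1% of the span, *Kdm6b* at 30.8%, *Kmt2d* at 26.4%, *Arid1b* at 25.7% and *Chd7* at 23.5%. At the other end, *Suz12*, *Ezh2*, *Kdm5a*, *Smarcc1* and *Eed* had between 0.611% and 1.67%. *Suz12* and *Ezh2* were under the 1% limit and entered no test, which left 37 members tested.

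**Figure D2:**
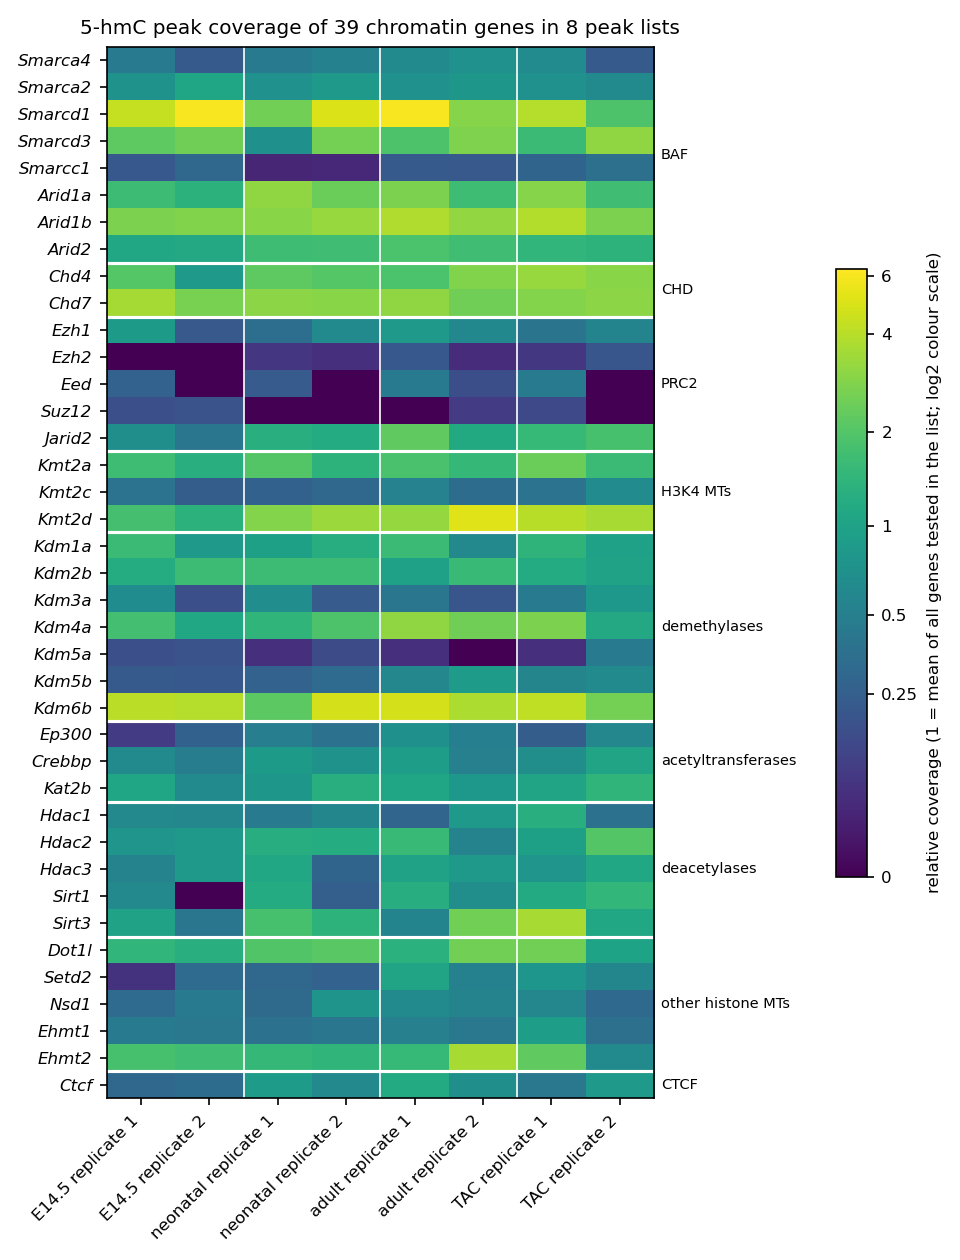
Relative coverage of each member (rows, grouped by role) in each of the 8 peak lists (columns), where 1 is the mean of all genes tested in that list and the colours follow log2(relative coverage + 0.1). The rows of Smarcd1, Kdm6b, Arid1b, Kmt2d and Chd7 are bright in all lists, while Ezh2, Eed, Suz12 and Kdm5a are dark and at 0 in 1 to 4 lists.

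Among the BAF genes, the group averaged 12.1% ± 0.580 (SD, n = 2) of the span at E14.5, 16.5% ± 5.48 (SD, n = 2) for the neonatal point, 18.8% ± 0.570 (SD, n = 2) for the adult point and 11.6% ± 5.64 (SD, n = 2) after TAC (15.6% in TAC replicate 1). Relative coverage was between 1.71 and 1.99 at all 4 points, so that the group stood above the average gene throughout. *Smarca4* and *Smarca2* (Brg1 and Brm), the alternative ATPases of the complex, both averaged below 1 in relative coverage over the 8 lists. *Smarca4* (chr9:21616106-21704230) had 3.16% and 1.44% in the E14.5 lists, 3.72% and 5.18% in the neonatal lists, 5.24% and 8.03% in the adult lists and 5.24% and 1.14% in the TAC lists. Its adult and neonatal values lay above both E14.5 values, and TAC replicate 2 was the lowest of all lists. *Smarca2* had 5.25% and 6.81% in the E14.5 lists, 5.93% and 8.21% in the neonatal lists, 5.98% and 8.82% in the adult lists and 5.88% and 3.2% in the TAC lists, and both TAC lists stood below both adult lists.

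*Smarcd1* and *Smarcd3* (Baf60a and Baf60c) are accessory subunits that link BAF to transcription factors, the second of them enriched in heart. *Smarcd1* (chr15:99702287-99713995) had 30.4% and 39.4% in the E14.5 lists, 21.1% and 50.2% in the neonatal lists, 49.97% and 32.1% in the adult lists and 31.7% and 9.67% in the TAC lists. Its points overlapped except that both TAC values lay below both adult values, which also overlapped in relative coverage. It was the only member with a peak on the promoter in all 8 lists. *Smarcd3* had 15.3% and 16.2% in the E14.5 lists, 5.86% and 25.5% in the neonatal lists, 15.6% and 30.6% in the adult lists and 12.96% and 15.7% in the TAC lists, also with overlap between points. The annotated *Smarcd3* span of 31.8 kb overlaps *Chpf2*, to an extent not measured here, and the curated *Smarcd3* transcripts cover 9.38 kb. Its coverage may therefore belong in part to the other gene.

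*Arid1a* and *Arid1b* are alternative subunits of canonical BAF and *Arid2* belongs to the PBAF form. *Arid1b* (chr17:4994297-5347656, 353 kb) held 64 to 95 peaks per list, more than any other member, and its coverage was 19.003% and 18.3% in the E14.5 lists, 24.5% and 32.5% in the neonatal lists, 31.1% and 34.7% in the adult lists and 31.3% and 13.9% in the TAC lists. The E14.5 lists were below the neonatal and adult lists. *Arid1a* had 11.5% and 8.77% in the E14.5 lists, 25.6% and 23.9% in the neonatal lists, 22.2% and 18.3% in the adult lists and 23.7% and 8.55% in the TAC lists, again with both E14.5 values below the neonatal and adult ones. *Arid2* (chr15:96287522-96405463) had 7.65% and 7.31% in the E14.5 lists, 13.6% and 16.8% in the neonatal lists, 15.4% and 18.8% in the adult lists and 11.7% and 6.98% in the TAC lists. In relative coverage, *Arid2* was higher in neonatal than in E14.5 CMCs by a log2 difference of 0.55 ± 0.23 (SE; limma adjusted p = 0.733) and lower in TAC than in adult CMCs, with a difference of -0.33 ± 0.23 (SE; limma adjusted p = 0.898, -0.88 to -0.23 over the alternatives). Neither difference passed the test.

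*Smarcc1* (Baf155), a scaffold subunit, was lowest in neonatal CMCs. Its peaks numbered 3 and 4 in the E14.5 lists, 1 and 1 in the neonatal lists, 4 and 5 in the adult lists and 5 and 4 in the TAC lists, and its coverage was 1.51% and 1.97% in the E14.5 lists, 0.463% and 0.581% in the neonatal lists, 1.85% and 2.44% in the adult lists and 2.32% and 1.85% in the TAC lists. Both neonatal lists lay below all 6 other lists. The log2 difference in relative coverage was -1.18 ± 0.59 (SE; limma adjusted p = 0.7996, -1.51 to -0.72 over the alternatives) for neonatal minus E14.5 and 1.04 ± 0.59 (SE; limma adjusted p = 0.6001, 0.62 to 1.37 over the alternatives) for adult minus neonatal. The lowest adjusted p of the first over the alternatives was 0.109. Each neonatal list held a single peak in a gene of 108 kb.

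On average, the CHD remodellers were covered above the average gene at all points, although *Chd4* had 0.847 times its coverage in E14.5 replicate 2. *Chd7*, the helicase mutated in CHARGE syndrome, had 24.9% and 17.4% in the E14.5 lists, 24.8% and 29.2% in the neonatal lists, 25.7% and 27.5% in the adult lists and 23.2% and 15.4% in the TAC lists of its 178 kb. The log2 differences in relative coverage were -0.05 for neonatal minus E14.5, -0.10 for adult minus neonatal and 0.07 for TAC minus adult, all with overlap of the replicates. *Chd4*, the ATPase of the NuRD complex, had 14.3% and 5.5% in the E14.5 lists, 17.9% and 20.04% in the neonatal lists, 15.5% and 31.3% in the adult lists and 26.7% and 15.1% in the TAC lists. In relative terms both TAC lists of *Chd4* were above both adult lists, with a log2 difference of 0.42 ± 0.42 (SE; limma adjusted p = 0.898, -0.13 to 0.83 over the alternatives), but on plain percent they overlapped and the difference was -0.13.

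PRC2 genes were the least covered group, at 1.93% ± 1.23 (SD, n = 2) of the span at E14.5, 3.47% ± 0.372 (SD, n = 2) for the neonatal point, 5.38% ± 1.04 (SD, n = 2) for the adult point and 3.44% ± 1.16 (SD, n = 2) after TAC (4.26% in TAC replicate 1). The catalytic subunit *Ezh2* (chr6:47530274-47595270) had no peak in either E14.5 list and 1 or 2 peaks in each of the other lists, and its coverage never exceeded 1.75%. *Suz12* had a single peak or none, covering at most 1.22%. *Eed*, the subunit that reads H3K27 methylation, had 0 to 2 peaks, and TAC replicate 2, E14.5 replicate 2 and neonatal replicate 2 had none. *Ezh1*, the catalytic subunit that persists in non-dividing cells, had 6.04% and 1.42% in the E14.5 lists, 2.88% and 6.09% in the neonatal lists, 6.85% and 6.63% in the adult lists and 3.2% and 2.83% in the TAC lists. Both TAC values of *Ezh1* lay below both adult values, with a log2 difference in relative coverage of -0.50 ± 0.73 (SE; limma adjusted p = 0.942, -1.04 to -0.30 over the alternatives).

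*Jarid2*, the accessory subunit that guides PRC2 to its targets and the founding Jumonji gene of heart development, was the most covered of the PRC2 genes. Its span of 191 kb lies at chr13:44730774-44921643. Peaks in it numbered 17 and 10 in the E14.5 lists, 31 and 32 in the neonatal lists, 39 and 37 in the adult lists and 32 and 26 in the TAC lists, and coverage was 4.84% and 2.7% in the E14.5 lists, 10.5% and 11.8% in the neonatal lists, 18.2% and 12.7% in the adult lists and 12.3% and 9.23% in the TAC lists. All 6 lists from neonatal, adult and TAC CMCs lay above both E14.5 lists, TAC replicate 2 included. The log2 difference in relative coverage was 1.07 ± 0.31 (SE; limma adjusted p = 0.602, 0.76 to 1.496 over the alternatives) for neonatal minus E14.5 and 1.41 ± 0.31 (SE; limma adjusted p = 0.0568) for adult minus E14.5. On plain percent both TAC values lay below both adult values, but in relative coverage they overlapped, with a difference of 0.05 ± 0.31 (SE; limma adjusted p = 1). Regions common to both lists of a point numbered 3 for E14.5, 16 for the neonatal point, 21 for the adult point and 13 for TAC. The map of peak positions shows these spread along the whole gene.

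**Figure D3:**
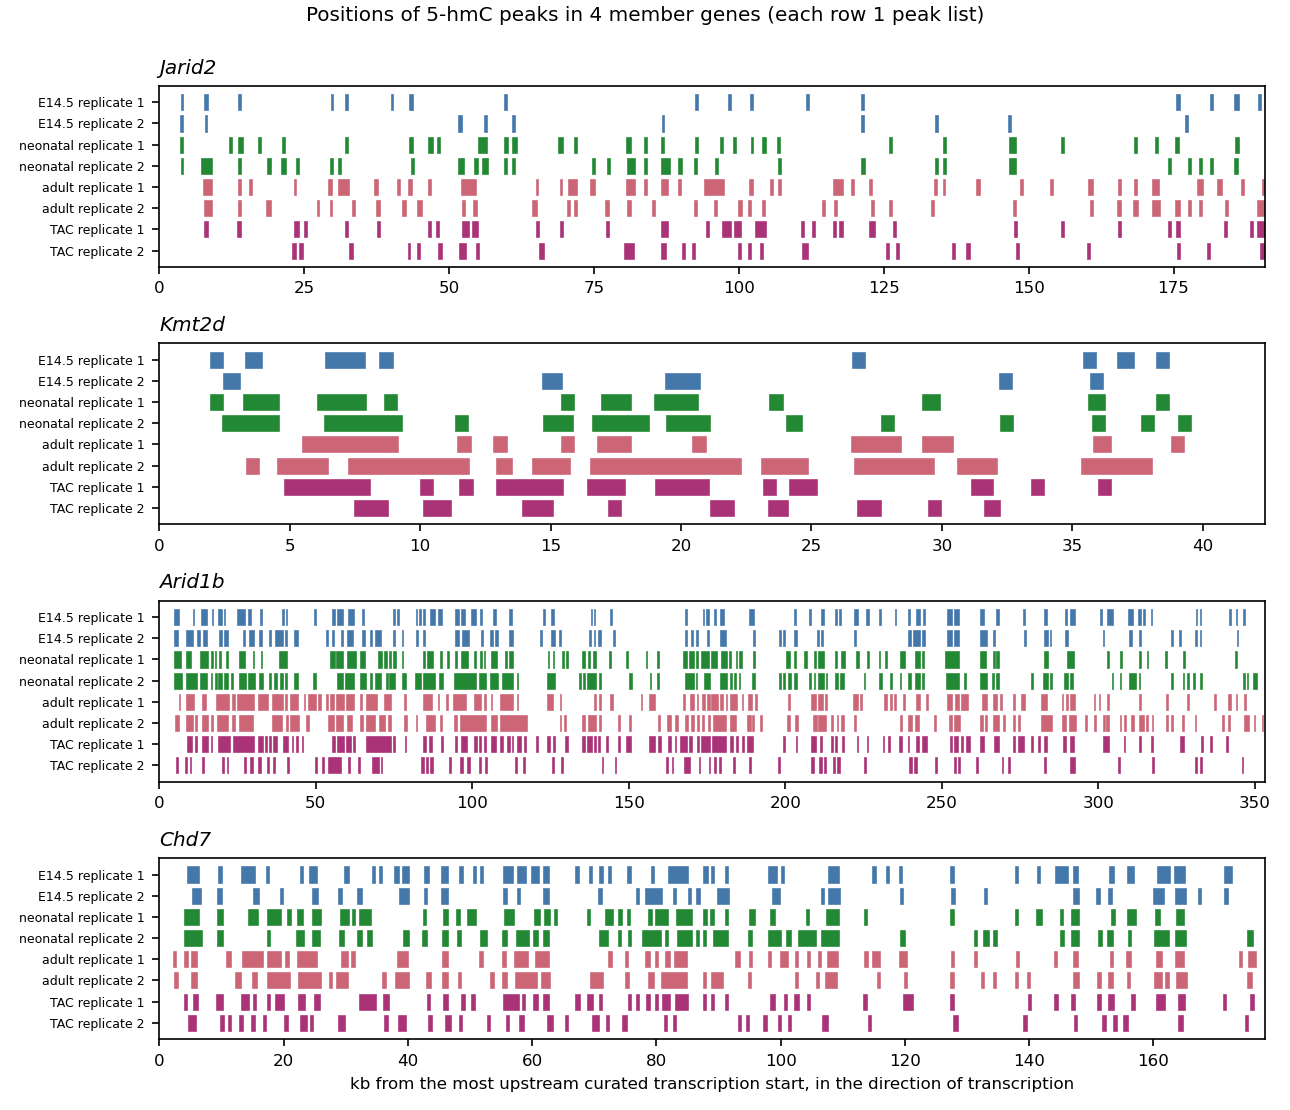
Peaks in Jarid2, Kmt2d, Arid1b and Chd7, with the horizontal axis in kb from the most upstream curated transcription start and 1 row per peak list, coloured by point. Jarid2 has 17 and 10 peaks in the E14.5 lists and 26 to 39 in the other 6 lists, whereas Chd7 has 33 to 48 peaks in every list.

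The H3K4 methyltransferases averaged 7.55% ± 1.97 (SD, n = 2) in embryonic CMCs at E14.5, then 15.2% ± 1.66 (SD, n = 2) for the neonatal point, 20.5% ± 7.24 (SD, n = 2) for the adult point and 14.2% ± 6.00 (SD, n = 2) after TAC (18.5% in TAC replicate 1). *Kmt2d*, an enhancer H3K4 methyltransferase mutated in Kabuki syndrome, had the largest share in these means. At chr15:98831669-98874077, with 42.4 kb and 55 exons in its longest transcript, it had 12.5% and 8.81% in the E14.5 lists, 23.3% and 32.6% in the neonatal lists, 26.6% and 56.6% in the adult lists and 32.6% and 18.5% in the TAC lists. As in *Jarid2*, both E14.5 lists were lower than all others. Here the log2 difference was 0.93 ± 0.30 (SE; limma adjusted p = 0.64) for neonatal minus E14.5 and 1.33 ± 0.30 (SE; limma adjusted p = 0.058) for adult minus E14.5. The number of peaks was 8 and 5 in the E14.5 lists, 11 and 12 in the neonatal lists, 10 and 10 in the adult lists and 11 and 9 in the TAC lists, and the widest peak, in adult replicate 2, measured 5814 bp. With peak centres per kb as the measure, the adult minus E14.5 difference was 0.35 (limma adjusted p = 0.593).

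*Kmt2a* (MLL1) had 11.7% and 8.12% in the E14.5 lists, 16.5% and 13.4% in the neonatal lists, 15.3% and 16.6% in the adult lists and 19.6% and 8.11% in the TAC lists, and both neonatal and both adult values exceeded both E14.5 values, while relative coverage overlapped. *Kmt2c*, the close relative of *Kmt2d*, was among the less covered members, with 2.7% and 1.54% in the E14.5 lists, 2.16% and 2.95% in the neonatal lists, 4.41% and 3.72% in the adult lists and 3.18% and 3.3% in the TAC lists. In relative terms its adult lists were above its neonatal lists by 0.47 on the log2 scale.

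Among the demethylases, coverage ranged from the second highest member to the third lowest. *Kdm6b*, which removes H3K27 trimethylation, had 28.2% and 25.4% in the E14.5 lists, 17.7% and 47.2% in the neonatal lists, 39.5% and 41.3% in the adult lists and 34.1% and 13.1% in the TAC lists of its 21.9 kb. It was high at all points and its neonatal replicates differed by more than the points did. *Kdm4a*, a demethylase of H3K9 and H3K36, had 12.3% and 7.17% in the E14.5 lists, 11.8% and 18.7% in the neonatal lists, 25.6% and 27.6% in the adult lists and 22.2% and 5.81% in the TAC lists. Both adult lists were above all E14.5 and neonatal lists, with a log2 difference of 0.72 ± 0.43 (SE; limma adjusted p = 0.621, 0.53 to 0.91 over the alternatives) for adult minus neonatal, while the TAC lists lay far apart.

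The H3K4 demethylases *Kdm5a* and *Kdm5b* are paralogs. *Kdm5b* (chr1:134560178-134632878) had 1.57% and 1.38% in the E14.5 lists, 2.24% and 3.24% in the neonatal lists, 4.82% and 9.66% in the adult lists and 4.61% and 3.21% in the TAC lists. The order of its lists was E14.5, neonatal and then adult without overlap, and both TAC lists were below both adult lists on plain percent, with overlap in relative coverage. Its log2 difference was 1.03 ± 0.47 (SE; limma adjusted p = 0.511, 0.78 to 1.29 over the alternatives) for adult minus neonatal. Peaks in *Kdm5a* numbered 2 and 2 in the E14.5 lists, 1 and 2 in the neonatal lists, 1 and 0 in the adult lists and 1 and 3 in the TAC lists. Its relative coverage was 0.178 and 0.192 in the E14.5 lists, 0.0757 and 0.16 in the neonatal lists, 0.0755 and 0 in the adult lists and 0.0766 and 0.456 in the TAC lists, so that each list rests on 3 peaks at most. The log2 differences were -0.41 ± 0.97 (SE; limma adjusted p = 0.998, -0.70 to -0.13 over the alternatives) for neonatal minus E14.5, -0.69 ± 0.97 (SE; limma adjusted p = 0.844, -1.10 to -0.29 over the alternatives) for adult minus neonatal and 1.24 ± 0.97 (SE; limma adjusted p = 0.898, 0.41 to 2.07 over the alternatives) for TAC minus adult. Parts of both spans overlap another protein-coding gene, *Ccdc77* in *Kdm5a* and *Mgat4e* in *Kdm5b*.

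*Kdm3a*, which removes H3K9 methylation, had 4.55% and 1.14% in the E14.5 lists, 5.54% and 2.28% in the neonatal lists, 3.41% and 2.28% in the adult lists and 3.71% and 4.18% in the TAC lists. Both TAC values were above both adult values, with a log2 difference of 0.85 ± 0.79 (SE; limma adjusted p = 0.898, 0.43 to 1.35 over the alternatives). *Kdm2b*, which binds unmethylated CpG islands, had 8.55% and 10.6% in the E14.5 lists, 13.5% and 16.01% in the neonatal lists, 8.06% and 16.99% in the adult lists and 9.65% and 5.1% in the TAC lists. Its relative coverage was lower in both adult lists than in both neonatal lists, with a log2 difference of -0.38 ± 0.29 (SE; limma adjusted p = 0.719, -0.68 to -0.08 over the alternatives), although on plain percent adult replicate 2 was the highest of all lists. *Kdm1a* (LSD1) had between 5.01% and 13.1% with overlap between all points. Its span also overlaps *Luzp1*.

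The acetyltransferases averaged 3.56% ± 0.850 (SD, n = 2) in embryonic CMCs at E14.5, then 6.88% ± 1.38 (SD, n = 2) for the neonatal point, 7.07% ± 0.436 (SD, n = 2) for the adult point and 5.24% ± 0.118 (SD, n = 2) after TAC (5.33% in TAC replicate 1). *Ep300* and *Crebbp* are the paralogs that acetylate H3K27 at enhancers. *Ep300* (chr15:81586209-81652077) had 0.761% and 1.72% in the E14.5 lists, 4.07% and 3.7% in the neonatal lists, 5.82% and 5.6% in the adult lists and 1.94% and 2.99% in the TAC lists. The adult lists were above the neonatal lists, and these above the E14.5 lists. The TAC lists lay between E14.5 and neonatal on plain percent, but in relative coverage they were 0.239 and 0.588 and overlapped both. Its log2 difference was 0.95 ± 0.59 (SE; limma adjusted p = 0.879, 0.54 to 1.39 over the alternatives) for neonatal minus E14.5. *Crebbp* had 4.37% and 3.12% in the E14.5 lists, 7.07% and 7.22% in the neonatal lists, 7.53% and 5.61% in the adult lists and 5.57% and 5.31% in the TAC lists, with both E14.5 values below all 6 others on plain percent, whereas in relative coverage adult replicate 2 lay between the E14.5 lists. *Kat2b* (PCAF) had 7.34% and 4.03% in the E14.5 lists, 6.56% and 12.7% in the neonatal lists, 8.8% and 9.09% in the adult lists and 8.47% and 7.17% in the TAC lists, and its adult values lay within the neonatal range.

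The deacetylases averaged 4.22% ± 1.03 (SD, n = 2) in E14.5 CMCs, compared with 8.43% ± 1.57 (SD, n = 2) in neonatal CMCs. The adult mean was 9.82% ± 3.1 (SD, n = 2), and the TAC mean 9.42% ± 4.60 (SD, n = 2) (12.7% in TAC replicate 1). The class I enzyme *Hdac1* had 4.27% and 3.78% in the E14.5 lists, 3.78% and 5.66% in the neonatal lists, 2.39% and 9.25% in the adult lists and 10.4% and 1.89% in the TAC lists, without a clear order. Relative to all genes it was lower in neonatal than in E14.5 lists, with a log2 difference of -0.18 ± 0.79 (SE; limma adjusted p = 1, -1.16 to 0.18 over the alternatives), and on plain percent the sign was the opposite, at 0.18. *Hdac2* had 5.45% and 5.45% in the E14.5 lists, 10.1% and 12.04% in the neonatal lists, 12.9% and 5.98% in the adult lists and 7.78% and 10.2% in the TAC lists, and its E14.5 lists were below all others on plain percent, whereas in relative coverage adult replicate 2 was the lowest list. *Hdac3*, the catalytic subunit of the NCoR complex, had 2.78% to 9.35%, and its neonatal replicates spanned most of that range.

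The NAD-dependent deacetylases stood as follows. *Sirt1* had 4.25% and 0% in the E14.5 lists, 9.74% and 2.5% in the neonatal lists, 10.1% and 7.49% in the adult lists and 9.53% and 7.5% in the TAC lists, with no peak in E14.5 replicate 2. Both adult values lay above both E14.5 values. *Sirt3*, which acts mainly in mitochondria, had 6.97% and 2.69% in the E14.5 lists, 14.95% and 13.6% in the neonatal lists, 4.53% and 28.02% in the adult lists and 29.4% and 5.63% in the TAC lists. Its 2 neonatal lists were above both E14.5 lists, with a log2 difference in relative coverage of 1.17 ± 0.78 (SE; limma adjusted p = 0.901, 0.62 to 2.74 over the alternatives), while the adult and TAC replicates each differed by several fold. *Sirt3* shares part of its span with *Ric8a*, and at 18.6 kb a single peak weighs heavily.

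Of the other histone methyltransferases, *Dot1l* had 10.2% and 8.1% in the E14.5 lists, 16.1% and 20.9% in the neonatal lists, 10.9% and 28.2% in the adult lists and 20.7% and 5.21% in the TAC lists, with the neonatal lists above the E14.5 lists. *Setd2*, which places H3K36 trimethylation on transcribed gene bodies, had 0.582% and 2.15% in the E14.5 lists, 2.54% and 2.64% in the neonatal lists, 8.56% and 5.8% in the adult lists and 6.38% and 2.91% in the TAC lists at chr9:110532500-110618633. Its adult lists lay above all E14.5 and neonatal lists, with a log2 difference of 1.12 ± 0.53 (SE; limma adjusted p = 0.531, 0.69 to 1.55 over the alternatives) for adult minus neonatal. The intron 1 region printed above is among its adult peaks. *Nsd1*, which dimethylates H3K36, had 1.60% to 7.47%. *Ehmt1* (GLP) had 1.85% to 7.57%.

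*Ehmt2* (G9a), the partner of *Ehmt1* in H3K9 dimethylation, had 12.6% and 10.9% in the E14.5 lists, 12.3% and 14.1% in the neonatal lists, 12.5% and 39.9% in the adult lists and 18.1% and 3.21% in the TAC lists. Adult replicate 2 stood far above the rest. In relative coverage its neonatal lists were below its E14.5 lists, with a log2 difference of -0.24 ± 0.66 (SE; limma adjusted p = 1, -0.52 to 0.31 over the alternatives), but the sign was the opposite on plain percent, at 0.16, and when all lists were cut to equal numbers of peaks, at 0.31. *Ctcf*, the architectural protein that bounds chromatin loops and whose binding is sensitive to CpG methylation at some sites, had 2.16% and 2.16% in the E14.5 lists, 7.24% and 6.05% in the neonatal lists, 9.73% and 7.68% in the adult lists and 3.51% and 4.31% in the TAC lists. Both E14.5 lists, with 2 peaks each, were the lowest, and the log2 difference for neonatal minus E14.5 was 0.99 ± 0.54 (SE; limma adjusted p = 0.837, 0.17 to 1.42 over the alternatives). Its TAC lists lay between the E14.5 and the neonatal lists on plain percent and overlapped the neonatal lists in relative coverage.

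The comparison of neonatal with E14.5 CMCs asks which genes gained or lost coverage around birth. By limma with adjustment over all genes tested, 0 of the 37 members passed an adjusted p of 0.05, against 1 gene of all (0.0075%). At an unadjusted p under 0.05, 4 members were higher (*Jarid2*, *Kmt2d*, *Arid1a* and *Arid2*) and 0 were lower, against 4.54% and 2.03% of all genes tested. The replicates did not overlap in 13 members that were higher in neonatal CMCs and 5 that were lower, against 16.5% and 21.5% of all genes. On plain percent the counts were 17 and 1, against 28.8% and 6.70% of all genes, where the median gene was higher by 0.27 on the log2 scale. The median log2 difference was 0.19 over the members and -0.05 over all genes.

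For adult against neonatal CMCs, 0 of 37 members were called by limma (0.03% of all genes, with 0.015% higher and 0.015% lower), and 0 reached an unadjusted p under 0.05 in either direction, against 3.46% higher and 6.24% lower over all genes. Replicates did not overlap in 10 members higher in adult CMCs (17.1% of all genes) and in 2 lower (27.2% of all genes). The 2 lower members were *Kdm5a* and *Kdm2b*. The median log2 difference was 0.21 over the members and -0.11 over all genes.

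For TAC against adult CMCs, 0 of 37 members and 0 of all genes (0%) were called by limma. No member reached an unadjusted p under 0.05, against 2.82% of all genes higher and 2.73% lower. Without overlap, 4 members were higher in TAC CMCs (17.6% of all genes) and 3 were lower (12.5% of all genes). The higher ones were *Kdm5a*, *Kdm3a*, *Chd4* and *Smarcc1*, and the lower ones *Ezh1*, *Arid2* and *Smarca2*. Without TAC replicate 2 the log2 differences of the first were 0.41, 0.49, 0.49 and 0.25, and those of the second -0.71, -0.29 and -0.06. On plain percent 1 was higher and 16 were lower, against 5.96% and 26.7% of all genes, where the median gene of all was lower by 0.41 on the log2 scale. Without TAC replicate 2 the counts were 11 and 8, against 33.2% and 26.7% of all genes, since 1 list need only lie outside the adult range. The median log2 difference was -0.04 over the members and 0.05 over all genes.

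Adult against E14.5 CMCs, the longest interval, shares its lists with the comparisons above. None of the 37 members was called by limma, against 1.26% of all genes, with 0.54% higher and 0.72% lower in adult CMCs. At an unadjusted p under 0.05, 8 members were higher and 0 lower, against 8.81% and 11.8% of all genes. The 8 were *Jarid2*, *Kmt2d*, *Setd2*, *Kdm5b*, *Ep300*, *Ctcf*, *Kdm4a* and *Arid2*, named here after their values were seen. Replicates did not overlap in 13 members higher in adult CMCs, against 20.8% of all genes, and in 1 member lower (*Kdm5a*), against 30.9% of all genes. The median log2 difference was 0.38 over the members, with 27 above 0 and 10 below, and -0.11 over all genes.

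*Jarid2* and *Kmt2d* came closest to a call over this interval, with limma adjusted p of 0.0568 and 0.058. These values depend on the variance model. With the variance trend on the mean level, limma adjusted p was 0.219 for *Jarid2* and 0.161 for *Kmt2d*. In limma without trend and robust variance it was 0.229 and 0.214. Over 22 alternatives the *Jarid2* difference ranged from 0.97 to 1.93 with adjusted p from 0.0378 to 0.345, and that of *Kmt2d* from 0.35 to 1.84 with adjusted p from 0.0472 to 0.593. Without adult replicate 1 the *Jarid2* difference was 0.97, and without adult replicate 2 that of *Kmt2d* was 1.004. In the limma F test over the 4 points, 0 members were called and 40 genes of all (0.3%), and *Jarid2* had the lowest adjusted p of the members, 0.123. With a minimum mean coverage of 2% in place of 1%, both passed, at limma adjusted p of 0.0468 and 0.0494, and with no minimum *Arid2* and *Kdm5b* passed instead. Of the 21 differences given in full for single genes, 18 moved by over 1.5 times or changed sign under at least 1 alternative, 13 of them when 1 replicate was left out. At an unadjusted p under 0.05 the F test counted 4 members, against 14.3% of all genes.

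**Figure D4:**
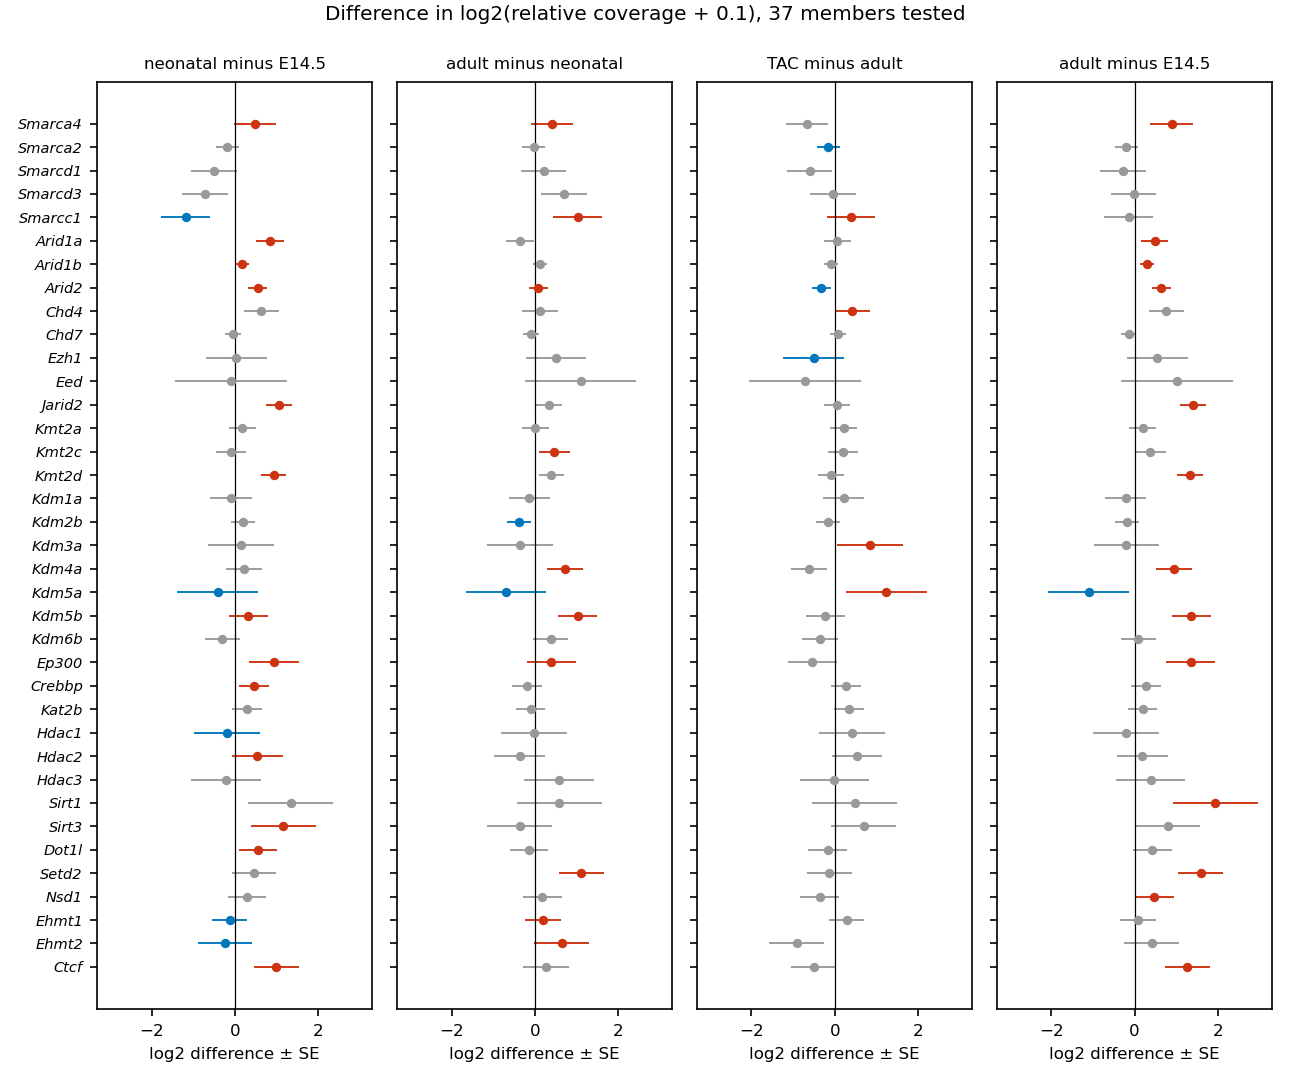
Difference in log2(relative coverage + 0.1) with its standard error for the 37 members tested (rows, in the order of their roles) in 4 comparisons (panels). Red and blue mark members whose replicates lay higher or lower without overlap (13 and 5, 10 and 2, 4 and 3, 13 and 1 from left to right) and grey marks overlap, while no member passed an adjusted p of 0.05.

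Peaks in the members were unevenly placed along the gene. For each part of the gene, covered base pairs were summed over the members and divided by the summed length of that part, so that long genes weigh more. Promoters, defined as the bases within 1 kb of a curated start site, were covered to 3.72% and 2.19% in the E14.5 lists, 5.55% and 6.85% in the neonatal lists, 7.05% and 8.71% in the adult lists and 6.52% and 5.41% in the TAC lists. Over all genes tested the promoter values stayed between 4.89% and 8.03%. Summed over the members, promoters were thus below those of all genes at E14.5, by 0.567 and 0.357 times, and above them in adult CMCs, by 1.16 and 1.17 times. The adult sums rest largely on *Nsd1* (58.45% and 73.1% of the promoter), *Chd7* (38.2% and 34.8%) and *Kdm2b* (19.3% and 38.2%). In the E14.5 lists these promoters had 52.65% and 0%, 31.65% and 3.03%, and 9.61% and 0%. At E14.5, 7 and 6 of the 39 members had a peak on the promoter, against 27.3% and 25.1% of all genes. In adult CMCs it was 11 of 39 in each list, near the share of all genes, 26.3% and 29.4%, and 15 members had none in any list.

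Exons and first introns of the members carried more coverage than other introns at each point, and the same held over all genes tested. There, exons, first introns and other introns averaged 7.51%, 7.44% and 5.60% at E14.5 and 12.5%, 9.79% and 6.48% in adult CMCs. The members' exons were covered to 12.3% and 7.53% in the E14.5 lists, 13.3% and 17.8% in the neonatal lists, 18.1% and 29.2% in the adult lists and 20.5% and 8.92% in the TAC lists, which was 1.12 to 1.998 times the value over all genes. In *Kmt2d*, exon coverage was 17.4% and 8.54% in the E14.5 lists, 28.3% and 42.4% in the neonatal lists, 38.9% and 74.97% in the adult lists and 41.6% and 22.6% in the TAC lists. In *Jarid2* it was 22.5% and 0% in the E14.5 lists, 22.7% and 8.11% in the neonatal lists, 46.3% and 68.5% in the adult lists and 45.7% and 24.2% in the TAC lists, with the adult lists above all others, TAC replicate 1 being close to adult replicate 1. First introns of the 31 members that have one outside promoters were covered to 11.2% ± 2.09 (SD, n = 2) at E14.5, to 16.8% ± 1.22 (SD, n = 2) in neonatal CMCs, to 19.04% ± 1.64 (SD, n = 2) in adult CMCs and to 13.1% ± 5.56 (SD, n = 2) after TAC (17.02% in TAC replicate 1). Other introns were covered to 6.45% ± 0.448 (SD, n = 2) at E14.5, to 10.4% ± 2.05 (SD, n = 2) in neonatal CMCs, to 11.5% ± 1.19 (SD, n = 2) in adult CMCs and to 8.19% ± 3.35 (SD, n = 2) after TAC (10.6% in TAC replicate 1). Introns other than the first held 63.0% to 68.4% of the covered base pairs of the members.

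**Figure D5:**
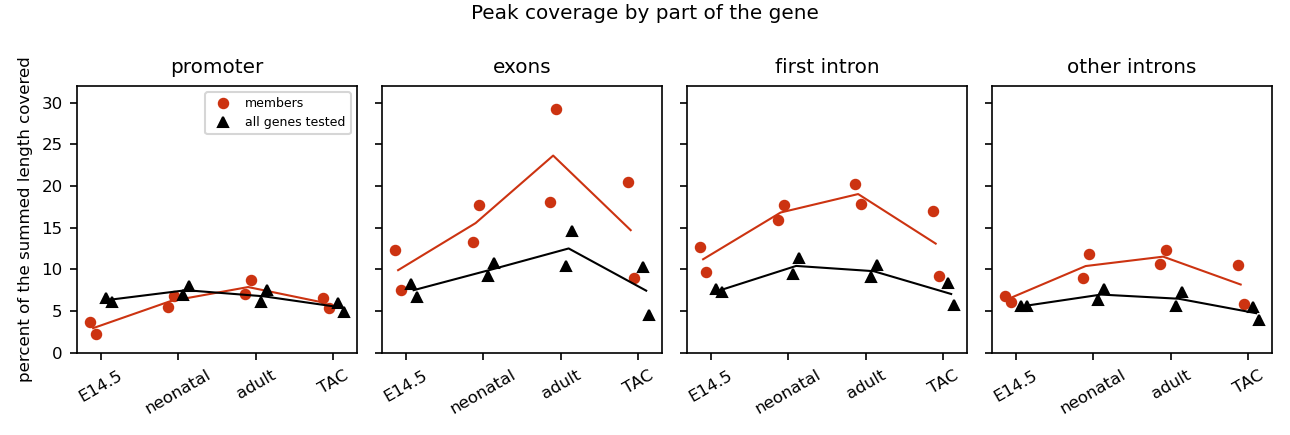
Percent of the summed length of promoters, exons, first introns and other introns covered by peaks at the 4 points, with 1 symbol per peak list and lines through the means. Circles are the members and triangles all genes tested. Summed member promoters go from 2.95% at E14.5 to 7.88% in adult CMCs, where Nsd1, Chd7 and Kdm2b weigh most. Those of all genes go from 6.34% to 6.77%, and member exons reach 18.1% and 29.2% in the adult lists.

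Some positions recurred. Regions in both lists of a point numbered 148 in the members for E14.5, 253 for the neonatal point, 238 for the adult point and 147 for TAC. They touched 28, 33, 36 and 29 of the 39 genes. More common regions in adult than in E14.5 CMCs were found in 25 members and fewer in 6. The same count was not made over all genes tested, whose mean coverage was also higher in adult (9.65%) than in E14.5 CMCs (6.74%). In all 8 lists there were 22 regions of 7.435 kb in all, in 8 members, of which *Arid1b* held 10 and *Chd7* held 6. *Smarcd1*, *Smarcd3*, *Arid2*, *Kmt2a*, *Dot1l* and *Ctcf* held 1 each. Without TAC replicate 2 there were 43 regions in 14 members. In the base pairs of these genes, replicates shared 0.252 for E14.5, 0.328 for the neonatal point, 0.294 for the adult point and 0.114 for TAC (Jaccard index). The highest index of any pair, 0.353, was between E14.5 replicate 2 and neonatal replicate 2.

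Coverage of a member went with the CpG density of its span. Across the 39 genes, mean relative coverage and CpG per 100 bp had Pearson's r of 0.80 and Spearman's rho of 0.82, and across all 13332 genes tested r was 0.46 and rho 0.54. These are descriptions across genes, which share the same lists and are not replicates. *Kdm6b*, with 3.33 CpG per 100 bp, *Ehmt2* with 2.66, *Kmt2d* with 2.35 and *Smarcd1* with 2.10 are the densest spans, and *Kmt2c*, with 0.623, is the poorest. The share of soft-masked bases, which marks repeats, went the opposite way, with rho of -0.76 in the members and -0.33 over all genes. Length gave rho of -0.19. For the CpG density of the promoter, rho was -0.19 in the members and 0.17 over all genes. Member promoters had a median of 6.8 CpG per 100 bp, against 4 over all genes.

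Under the peaks, the members had 1.80 and 1.76 CpG per 100 bp in the E14.5 lists, 1.71 and 1.68 in the neonatal lists, 1.70 and 1.78 in the adult lists and 1.75 and 1.36 in the TAC lists. Outside the peaks it was 1.06 to 1.15. The 7 lists other than TAC replicate 2 therefore marked CpG-denser stretches of these genes to a similar degree at each point.

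A wider list of 118 other genes of the same machinery, including further subunits of BAF, NuRD, PRC1, PRC2, KMT2 and HDAC complexes, was measured in the same way. Of these, 110 could be tested. Over all 118, mean coverage relative to the genes tested was 0.992 ± 0.122 (SD, n = 2) in embryonic CMCs at E14.5, then 1.19 ± 0.000435 (SD, n = 2) for the neonatal point, 1.33 ± 0.0389 (SD, n = 2) for the adult point and 1.19 ± 0.138 (SD, n = 2) after TAC (1.29 in TAC replicate 1). The counts that follow are of the 110 tested. None was called by limma in any comparison. In adult against E14.5 CMCs, 41 were higher without overlap and 10 lower, against 20.8% and 30.9% of all genes, and the median log2 difference was 0.37. In neonatal against E14.5 CMCs, 36 were higher and 12 lower, against 16.5% and 21.5% of all genes. In adult against neonatal CMCs, 32 were higher and 17 lower, against 17.1% and 27.2%. In TAC against adult CMCs, 16 were higher and 17 lower, against 17.6% and 12.5%.

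Single genes of this list had wider differences than the members. *Bmi1*, a core subunit of PRC1, had 0% and 0% in the E14.5 lists, 0% and 0% in the neonatal lists, 18.5% and 13.2% in the adult lists and 11.7% and 6.73% in the TAC lists, so that the E14.5 and neonatal lists were at 0 and all adult and TAC lists were not. *Dpf1*, a BAF subunit of neurons, had 24.8% and 15.2% in the E14.5 lists, 12.8% and 9.01% in the neonatal lists, 3.67% and 9.77% in the adult lists and 7.35% and 11.98% in the TAC lists, and both E14.5 values lay above all others on plain percent. *Dpf2*, its broadly expressed relative, had 7.15% and 0% in the E14.5 lists, 19.8% and 23.3% in the neonatal lists, 24.9% and 13.8% in the adult lists and 9.19% and 6.13% in the TAC lists, with the neonatal and adult lists above all others. *Rad21*, a cohesin subunit that acts with CTCF, had 0% and 0% in the E14.5 lists, 6.48% and 1.62% in the neonatal lists, 7.68% and 8.21% in the adult lists and 3.24% and 0% in the TAC lists, with the adult lists highest on plain percent. These genes are the extremes of their list, chosen by their values, and none passed the test. Their numbers of peaks are not given here, and in a short gene a single peak weighs heavily.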

How the data were processed

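The authors immunoprecipitated 5-hmC DNA of isolated CMCs, aligned reads to mm10 with BWA 0.7.4-r385, kept reads of mapping quality 10 or more, removed duplicates with Picard and called peaks against input with HOMER 4.5 in histone mode, once per replicate. The 8 deposited BED files give chromosome, start and end of each peak and a score that is 1 in every row, so neither height nor depth is known. Per the file headers, the library scaled before calling was the control in both E14.5 lists, neonatal replicate 1 and adult replicate 1. It was the precipitated one in the other 4 lists, which include both TAC lists. The scaled library therefore cannot be told apart from the point between E14.5 and TAC. It also differed in part between E14.5 and the neonatal or adult point, and between TAC and the neonatal or adult point. Input and knockdown samples were not analysed here.

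Gene spans, exons and curated starts came from the GRCm38 RefSeq annotation. The percent of each span covered by peaks was divided by the mean over the 13332 genes tested in that list. Log2(relative coverage + 0.1) was fitted in limma 3.58.1 (R 4.3.3) over all 8 lists, with robust variances, and p-values were adjusted by Benjamini-Hochberg over all genes tested. The variance trend followed covered base pairs, chosen on simulated data after a trend on the mean level made no calls there. Replicates are biological per the labels. For each comparison of successive points, up to 4 members in each direction were named by the size of the difference among those whose replicates did not overlap, and other names are of genes described by role. The members and gene lists were chosen with earlier results of these data known. Alternatives covered scaling, pseudocount, filters, gene span, measure, list size, model and each replicate left out. Python 3.11.15, numpy 2.4.6, pandas 2.3.3 and scipy 1.17.1 were used.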

Additional observations from a re-analysis of the deposited data

How the results depend on the processing

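No member passed the adjusted p in the fits with other pseudocounts, other spans, peak centres, equal numbers of peaks or 1 replicate left out. In adult against E14.5 CMCs, 2 members passed with no coverage minimum (*Arid2* and *Kdm5b*), 2 with a minimum of 2% and 2 with a replicate block (*Jarid2* and *Kmt2d* with that minimum and with the block, where limma's adjusted p was 0.0378 and 0.0472), and over the 4 points *Arid2* passed with no minimum. The 40 genes of all called over the 4 points became 7 without division by the list mean, 335 with no minimum, 61 without promoters, 0 with peak centres, 17 with equal numbers of peaks, 183 in limma without trend and robust variance, 0 with the scaled library as a term, 75 with the replicate block, and 0 to 76 with 1 replicate left out (76 without TAC replicate 1). Deviations of same-numbered lists correlated by 0.238 between the E14.5 and neonatal points and by 0.0123 to 0.107 between the other points. The labels do not say whether replicate numbers pair the samples, and the block changed no other call of a member.

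Without division by the list mean, the differences of *Ehmt2* (0.16) and *Hdac1* (0.18) for neonatal minus E14.5, and of *Chd4* (-0.13) and *Smarcc1* (-0.032) for TAC minus adult, changed sign. *Hdac1* did so with peak centres (0.053) and *Ehmt2* with equal numbers of peaks (0.31). The members' mean relative coverage in adult CMCs was 1.34 with genes of at least 2 kb, 1.20 with peak centres, 1.34 with equal numbers of peaks, 1.57 against the same length decile and 1.67 over base pairs common to both replicates, which gave 1.96 in TAC CMCs. At E14.5 the ratio of medians was 0.944. With equal numbers of peaks, first and other introns had 8.79% and 5.04% at E14.5, and promoters, exons, first and other introns 3.27%, 11.6%, 9.96% and 7.11% in neonatal CMCs.

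Counts of members without overlap, in alternatives chosen after seeing the data, were as follows. Without division by the list mean, 1 was lower in neonatal than in E14.5 (6.70% of all genes), 1 lower in adult than in neonatal (21.4%), 1 higher (5.96%) and 16 lower (26.7%) in TAC than in adult, and 25 higher in adult than in E14.5 CMCs (32.01%). With peak centres, 5 were lower in adult than in neonatal (22.1%), 11 higher (19.9%) and 0 lower (11.9%) in TAC than in adult, and 4 lower in adult than in E14.5 CMCs (29.5%). With equal numbers of peaks, 8 were higher in neonatal (14.51%) and 2 lower in adult (26.9%) than in E14.5 CMCs. Without TAC replicate 2, 11 were higher (33.2%) and 8 lower (26.7%) in TAC CMCs, and 43 regions were shared by all lists. The cause of these shifts was not tested. The other 224 summary values kept their side of the threshold or stayed within 1.5 times or 1 SD. With 2 lists per point and no depth, small differences cannot be shown.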
